A study of Mus musculus with 15 samples.

Results

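Chaperones and protein folding genes were examined in embryonic mouse mammary buds and in ventral skin. The members were all probe sets on the 4 gene lists deposited by the authors whose old or current gene symbol began with Hsp, Dnaj, Cct and a digit, Pdi, Fkbp, Ppi and a letter, Bag, St13, Stip, Ahsa, Calr, Canx or Pfdn, or was Tcp1. This rule took 36 probe sets of 29 genes, out of 2070 genes named on the lists. Of the 36 probe sets, 35 were bright enough to be tested, and these covered all 29 genes. The prefix took 1 gene that is no chaperone by its current name, the transmembrane protein gene Tmem132a, which the lists carry under the older symbol Hspa5bp1. Conversely, Dnajc14, Hsp90b1, Pdia3 and Pdia6 stood on the lists under older symbols and were members through their current ones.

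Chaperones bind unfolded or newly made proteins and help them to reach and keep their shape. In the cytosol, Hsp70 proteins take up short unfolded stretches with the help of J proteins, Hsp90 proteins finish kinases and steroid receptors together with cochaperones such as Fkbp4, and the ring-shaped TRiC complex (subunits Tcp1 and Cct2 to Cct8) folds actin and tubulin. In the endoplasmic reticulum (ER), Hspa5 (BiP), Hsp90b1 (Grp94), calnexin and the disulfide isomerases fold secreted and membrane proteins, and Fkbp10 and Ppib, prolyl isomerases, take part in the folding of collagen.

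RNA was measured on 15 Affymetrix MOE430A arrays in 5 groups of 3, all from CD-1 embryos on embryonic day 15. Buds came from wild-type (WT) embryos and from embryos labelled PTHrP-/-, without parathyroid hormone-related protein. Ventral skin came from WT embryos, from embryos labelled K14-PTHrP, whose transgene makes PTHrP in basal keratinocytes under the keratin 14 promoter, and from a second WT set labelled K14WT, which the labels pair with the K14-PTHrP skin. Buds and skin were pooled by genotype for RNA isolation, with a mean of 120 buds for roughly 20 ug of RNA. Whether each array had a pool of its own is not given, so the p-values cover only the spread of these RNA preparations, part of which may be technical.

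Values are the authors' log2 expression levels, and a difference of 1 is a 2-fold difference in signal. The single probe set of Pthlh, the gene of PTHrP, read 4.87, 5.85 and 5.57 in WT buds and 6.81, 6.28 and 6.11 in the buds labelled PTHrP-/-, and 4.38, 3.86 and 4.23 in K14WT skin against 3.60, 3.64 and 3.39 in the skin labelled K14-PTHrP. The sources used here do not say which part of the gene the mutant allele lacks or which PTHrP sequence the transgene carries, so this probe set checks neither label, and directions below are between groups as labelled. Bud epithelium markers were below 0 in WT skin minus WT buds for 9 of 9 genes and dermal fibroblast markers above 0 for 7 of 7. Markers could be named only where they stood on the authors' lists, and 7 of those 9 and all 7 of the fibroblast genes stood on the lists drawn from this very contrast, so these directions were largely fixed by the choice and are no independent check of the tissues. On 131 tested probe sets the WT skin mean lay over 1 log2 unit beyond the means of all 4 other groups, and no member was among them. All 42 list entries of the members equalled the group means of the table within 0.51 signal units, the allowance for rounding.

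The members stood on both pairs of lists. The list of probe sets higher in the buds labelled PTHrP-/- than in WT buds held 10 members among 639 (1.56%), and the list of lower ones held 16 among 1484 (1.08%). The list higher in WT skin than in WT buds held 13 among 338 (3.85%), and the list of lower ones held 3 among 215 (1.40%). Both probe sets of Hspa8, 1 of Cct2 and that of Dnajc14 were listed as higher in both contrasts, and Pdia5 and 1 probe set of Fkbp10 as lower in the mutant buds and higher in WT skin. Since these contrasts chose the members, their values in them are given as a description. The skin labelled K14-PTHrP and the K14WT skin shared no array with either contrast.

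**Figure D1:**
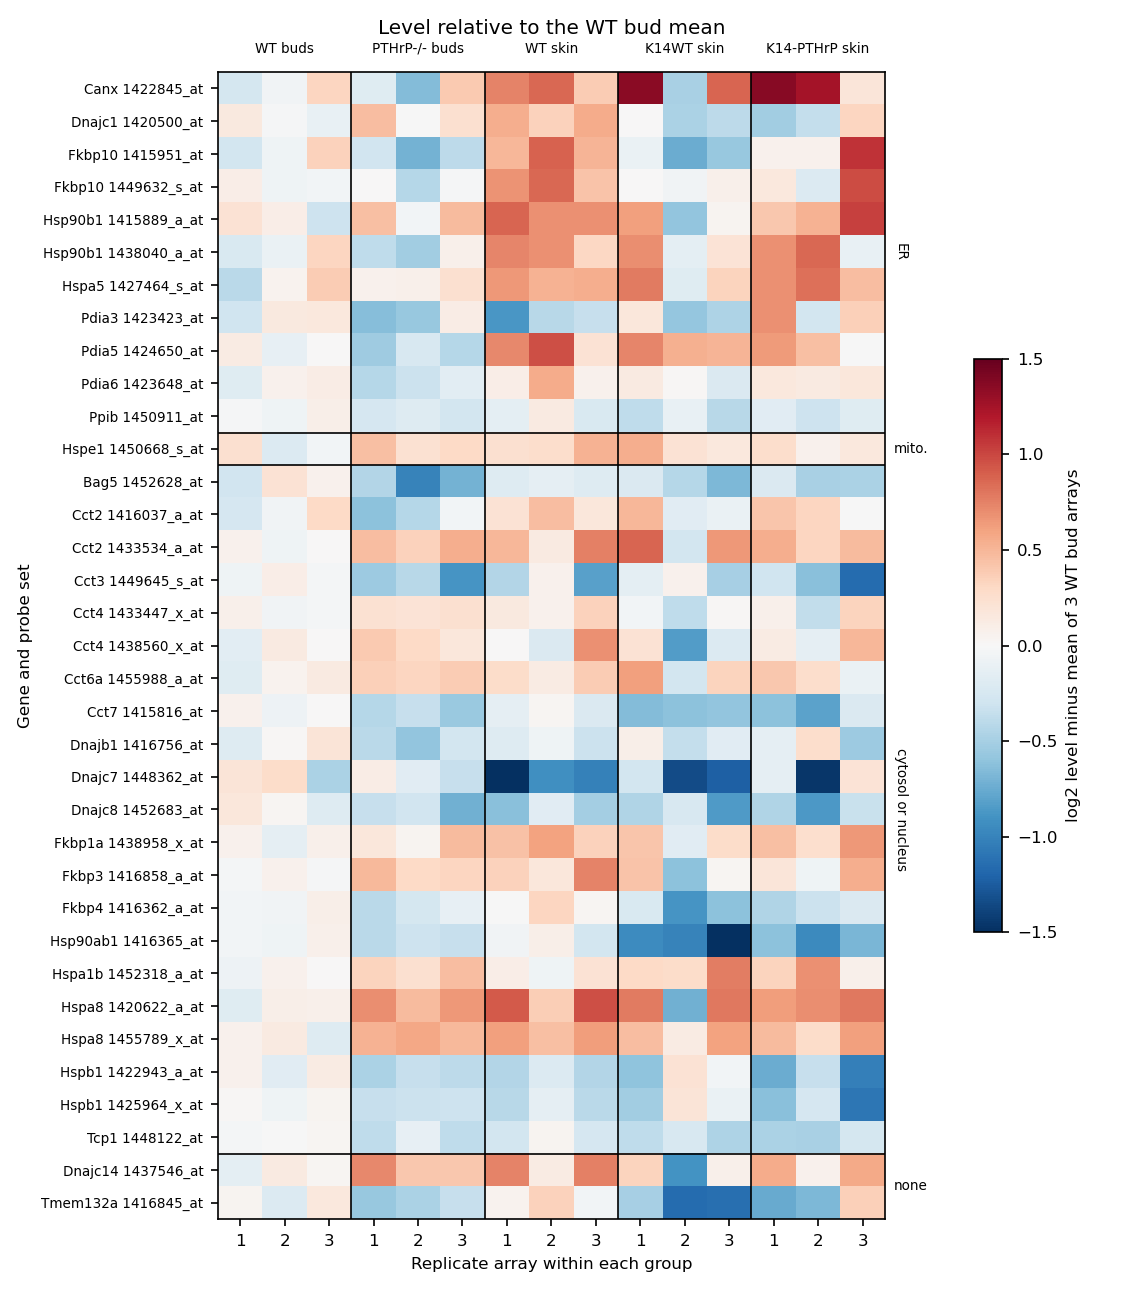
Log2 level of the 35 tested member probe sets (rows, grouped by compartment) on the 15 arrays (columns), minus the mean of the 3 WT bud arrays. Most ER rows are above the WT bud level in WT skin, Hsp90ab1 is at its lowest in K14WT skin (10.32 to 10.89), and the second K14WT array is lower than its 2 partners in many rows.

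Between buds labelled PTHrP-/- and WT buds the members did not share 1 direction. The Hsp70 genes Hspa8 and Hspa1b had higher means in the mutant buds. Hsp90ab1, the small heat shock protein gene Hspb1, the 3 disulfide isomerases and Bag5 had lower means, and the TRiC subunits lay on both sides. No member passed the test across all probe sets (limma, adjusted p under 0.05), which 4 of 11690 probe sets did (0.0342%), and 9 of the 35 members had an unadjusted p under 0.05 against 14.1% of all probe sets. The median difference of the members was -0.24, with 14 above and 21 below 0, beside -0.03 and 46% above 0 over all tested probe sets. The arrays of both groups did not overlap for 9 members with the mutant higher (background 14.2%) and 14 with the mutant lower (background 18%), which the choice of the lists had favoured.

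Markers of other cell types and 18S ribosomal RNA also differed between the bud groups. The summed level of 11 skeletal muscle markers was 13.27 to 13.39 in WT and 12.70 to 12.99 in mutant buds, and each of the 11 genes was lower without overlap. That of 9 bud epithelium markers, all with lower means in the mutant, was 12.09 to 12.18 against 11.47 to 11.85, and that of 5 keratinocyte markers 13.88 to 13.94 against 13.60 to 13.68. All 11 muscle genes, 7 of the epithelial and 4 of the keratinocyte genes were named through the list of probe sets lower in the mutant buds, which fixed their direction. 18S ribosomal RNA read 8.62 to 9.10 in WT and 9.22 to 9.74 in mutant buds. Their part in the differences of the members was not tested.

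Hspa8 encodes the constitutive Hsp70 of the cytosol. Its probe set 1455789_x_at read 11.93, 12.00 and 11.67 in WT buds and 12.38, 12.44 and 12.35 in the mutant buds. Every mutant array was above every WT array, and the difference was 0.53 ± 0.13 (SE of the fit, 3 arrays a group, adjusted p = 0.212). The other probe set, 1420622_a_at, read 11.04, 11.31 and 11.30 against 11.92, 11.70 and 11.87, again without overlap (0.61 ± 0.31, adjusted p = 0.381). Hspa1b, a stress-inducible Hsp70 whose sequence is nearly that of Hspa1a so that its probe set may read both, differed by 0.35 ± 0.16. Its arrays read 9.98 to 10.12 in WT and 10.30 to 10.52 in mutant buds. Hspa5, the Hsp70 of the ER, differed by 0.12 ± 0.22 and its groups overlapped.

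Bag5, whose product binds Hsp70 proteins and regulates their cycle, had the lowest difference of the members. Its levels were 5.64, 6.15 and 5.99 in WT buds and 5.49, 4.93 and 5.22 in mutant buds, a difference of -0.72 ± 0.16 without overlap (adjusted p = 0.209). Among the J proteins, which deliver substrates to Hsp70, Dnajc8 differed by -0.45 ± 0.19 and Dnajb1 by -0.43 ± 0.19, both without overlap, and Dnajc14 by 0.51 ± 0.27. Dnajc14 read 7.33 to 7.61 in WT and 7.88 to 8.20 in mutant buds.

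Hsp90ab1, the constitutive Hsp90 of the cytosol, read 11.79, 11.77 and 11.91 in WT buds and 11.43, 11.52 and 11.49 in mutant buds. The mutant arrays were all lower, by -0.35 ± 0.15 on average (adjusted p = 0.334). Its cochaperone Fkbp4 differed by -0.26 ± 0.15, also without overlap. Hspb1 (Hsp25 of the mouse), a small heat shock protein that holds unfolded proteins, had 2 tested probe sets, which differed by -0.40 ± 0.20 and -0.33 ± 0.19. On each of them the 3 mutant arrays lay below the 3 WT arrays.

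The probe sets of the TRiC subunits did not share a direction. All of them were listed from this contrast, some as higher and some as lower, so this split was fixed by the choice. Cct3 (-0.62 ± 0.24), Cct7 (-0.45 ± 0.13) and Tcp1 (-0.29 ± 0.11) were lower in every mutant bud array than in any WT array. Cct6a (0.35 ± 0.19) and both probe sets of Cct4 (0.29 ± 0.26 and 0.22 ± 0.16) were higher in every mutant array. The probe sets of Cct2 disagreed. On 1433534_a_at Cct2 read 10.74, 10.60 and 10.67 in WT and 11.13, 11.02 and 11.22 in mutant buds (0.45 ± 0.23), while on 1416037_a_at it read 11.11, 11.31 and 11.66 against 10.74, 10.93 and 11.32 (-0.36 ± 0.21). Hspe1, the cochaperonin of mitochondria, differed by 0.33 ± 0.14 with overlapping arrays.

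In the buds the signs of the member probe sets differed by the kind of probe set. Affymetrix marks with a suffix the sets whose probes match several transcripts of a gene (_a_at), several genes (_s_at) or cross-hybridize (_x_at). Of the 16 member probe sets without such a mark, 2 were above 0, with a median of -0.36. Of the 19 with a mark, 12 were above 0, with a median of 0.23. Over all tested probe sets the medians were -0.03 for the 7175 without a mark and -0.02 for the 4515 with one. The 10 members listed as higher and the 16 listed as lower in the mutant buds had their signs fixed by that choice. The sizes of their medians are thus not comparable with those over all probe sets. Cct2, Cct4, Hsp90b1, Hspa8 and Hspb1 were each counted with 2 marked probe sets. The 3 prime minus 5 prime levels of the control probe sets overlapped between the groups. For beta-actin they were 1.67, 1.56 and 1.2 in WT and 1.87, 1.91 and 1.43 in mutant buds. For Gapdh they were 1.0, 1.03 and 0.72 against 1.41, 1.29 and 0.67, with the third mutant array below every WT array.

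Of 11 ER probe sets, 3 were above 0 in the mutant buds, with a median of -0.24. Pdia5 (-0.40 ± 0.19), Pdia3 (-0.37 ± 0.28) and Pdia6 (-0.30 ± 0.14), which form and rearrange disulfide bonds, were all below 0, with overlap in Pdia3 and Pdia6. Ppib (cyclophilin B) differed by -0.24 ± 0.11. Fkbp10 differed by -0.47 ± 0.27 on 1415951_at and by -0.14 ± 0.23 on 1449632_s_at. The probe sets of Hsp90b1 disagreed in sign (0.29 ± 0.27 on 1415889_a_at and -0.27 ± 0.27 on 1438040_a_at), both with overlapping arrays, and Canx differed by -0.15 ± 0.43. Tmem132a differed by -0.47 ± 0.26, and Fkbp3 and Fkbp1a, prolyl isomerases of the cytosol or nucleus, by 0.37 ± 0.23 and 0.23 ± 0.16.

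**Figure D2:**
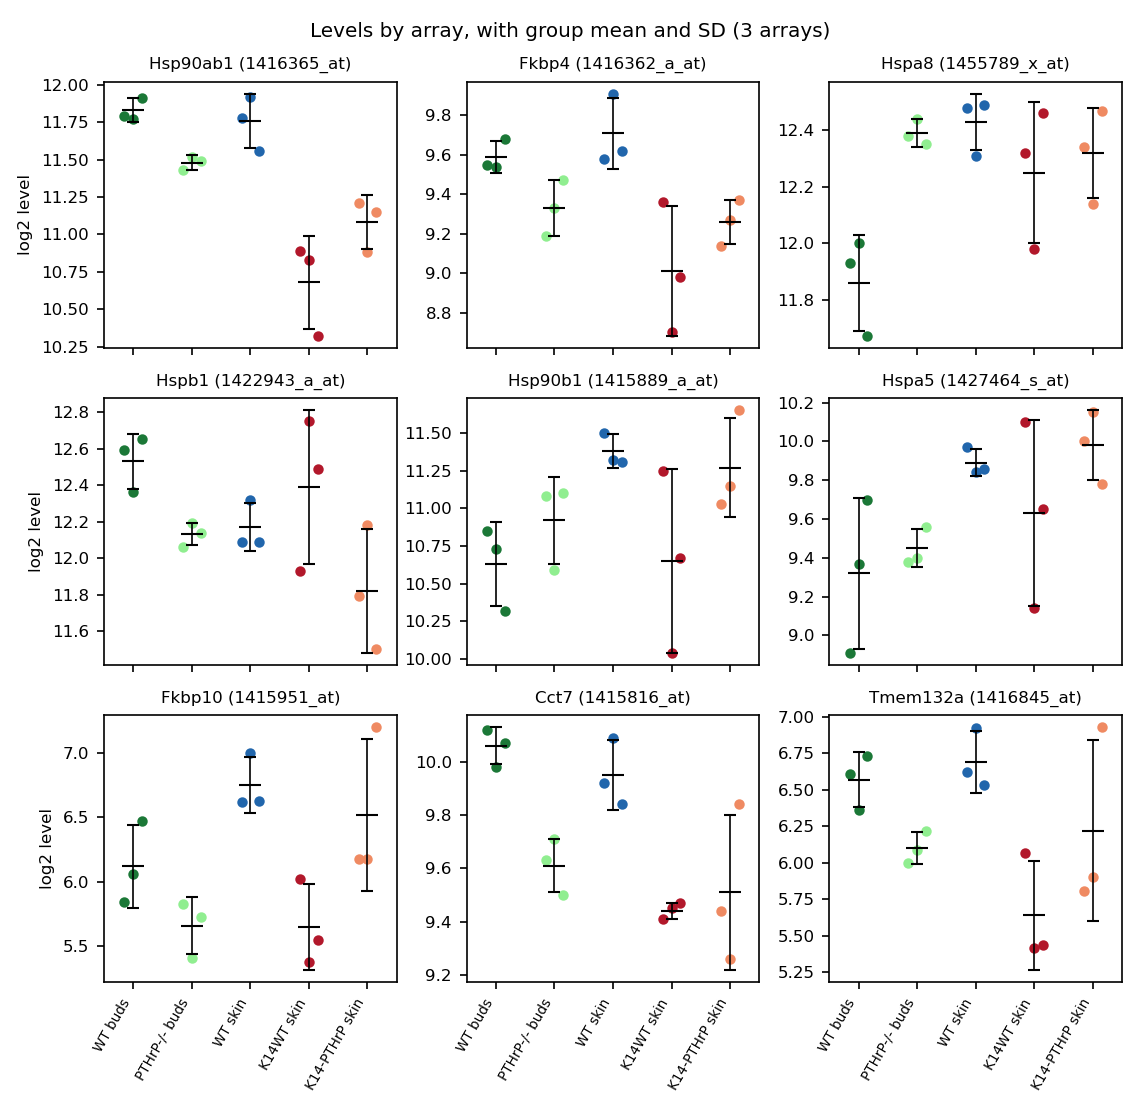
Log2 levels of 9 member probe sets by array (points), with the mean and SD of the 3 arrays of each group (bars), and a vertical scale of its own for each gene. Hspa8 has its lowest mean in WT buds (11.86), Hsp90ab1, Fkbp4 and Tmem132a have their lowest means in K14WT skin, and the K14WT arrays of Hspa5 and Hsp90b1 spread widely.

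Between WT skin and WT buds most ER members had higher means in skin, and members of the cytosol lay on both sides. Hsp90b1, Canx, Hspa5, Pdia5 and Fkbp10 differed by 0.56 to 0.74. Of 11 ER probe sets 9 were above 0 with a median of 0.58, and of 21 probe sets of the cytosol or nucleus 11 were above 0 with a median of 0.09. Of the 35 members none passed the test, beside 214 of 11690 probe sets (1.83%), and 12 had an unadjusted p under 0.05 (background 10.4%). In 12 members every skin array was above every bud array (background 9.4%), and in 4 every one was below (background 9.39%). The median of the members was 0.24, beside 0.01 over all probe sets (52.9% above 0), with 23 members above 0, and 16 of the 36 member probe sets were listed from this contrast. Of the ER members all but Pdia6 and Ppib were listed from it, while most of the cytosolic or nuclear ones were not. The difference between the compartments was thus largely fixed by the choice of the lists.

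On 1415889_a_at Hsp90b1 read 10.85, 10.73 and 10.32 in WT buds and 11.50, 11.32 and 11.31 in WT skin, with no overlap (0.74 ± 0.27, adjusted p = 0.293). On its other probe set, 1438040_a_at, it read 9.02, 9.15 and 9.57 against 9.98, 9.94 and 9.56, so that the third skin array fell within the range of the buds (0.58 ± 0.27, adjusted p = 0.491). Canx (calnexin), a membrane-bound lectin that holds new glycoproteins, read 7.37, 7.58 and 7.95 against 8.37, 8.49 and 8.01 (0.66 ± 0.43). Hspa5 read 8.91, 9.37 and 9.70 against 9.97, 9.84 and 9.86 (0.56 ± 0.22). In Canx and Hspa5 the lowest skin array was above the highest bud array, though for Canx by little. Pdia5 (0.64 ± 0.19, adjusted p = 0.169) read 6.70 to 6.94 in buds and 7.04 to 7.79 in skin. Both Fkbp10 probe sets were higher without overlap (0.66 ± 0.23 and 0.63 ± 0.27), as was Dnajc1, a J protein of the ER membrane (0.48 ± 0.20). Pdia3 went the other way, with 9.97, 10.42 and 10.43 in buds and 9.40, 9.85 and 9.92 in skin (-0.55 ± 0.28).

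Outside the ER, Hspa8 was again higher in every array, by 0.56 ± 0.13 on 1455789_x_at (adjusted p = 0.0524) and 0.75 ± 0.31 on 1420622_a_at. These values share the WT bud arrays with the differences of 0.53 and 0.61 in the mutant buds. Fkbp1a (0.46 ± 0.16), Fkbp3 (0.42 ± 0.23) and Cct2 on 1433534_a_at (0.46 ± 0.23) were also without overlap. Dnajc7, a cytosolic J protein that works with Hsp70 and Hsp90, had the lowest difference. It read 7.83, 7.92 and 7.16 in buds and 6.11, 6.72 and 6.63 in skin (-1.15 ± 0.39, adjusted p = 0.259), so that every skin array was below every bud array. Hspb1 was lower without overlap on both tested probe sets (-0.37 ± 0.20 and -0.32 ± 0.19), Dnajc8 differed by -0.44 ± 0.19, Cct3 by -0.40 ± 0.24 and Hsp90ab1 by -0.07 ± 0.15. These probe sets had been listed as lower in mutant than in WT buds. That choice, on the same WT bud arrays, favoured values below 0 here, while Fkbp3 had been listed as higher there, which favoured the reverse. Dermal fibroblast markers, whose products include the collagens that the ER members help to fold and which were all listed as higher in this contrast, had a summed level of 14.30 to 14.50 in WT buds and 14.74 to 15.08 in WT skin. Their part in the ER differences was not tested, and in bulk tissue more cells of a type and more RNA per cell cannot be told apart.

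**Figure D3:**
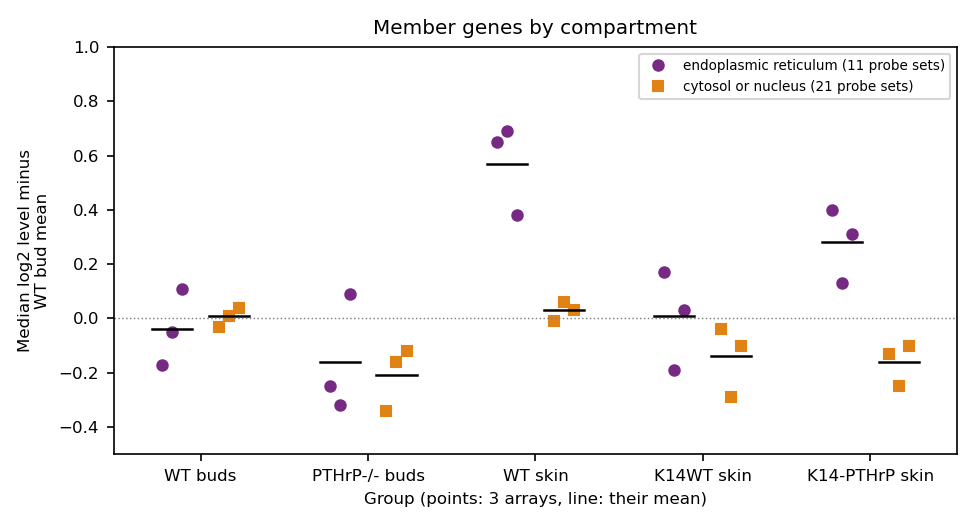
Median log2 level, minus the WT bud mean, of the 11 ER probe sets (circles) and the 21 probe sets of the cytosol or nucleus (squares) on each of the 3 arrays of a group (lines: group means). Both skin sets from WT embryos are shown: the ER medians of the one labelled WT are 0.38 to 0.69, those of K14WT skin -0.19 to 0.17. All ER probe sets but those of Pdia3, Pdia6 and Ppib had been listed as higher on these WT skin arrays than in WT buds. That choice favoured high medians in the skin labelled WT, and not in K14WT skin.

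Some ER members share a promoter motif that the rule did not use. Promoter windows from 250 bases before to 50 bases after the start of transcription, from RefSeq on GRCm38.p6, were searched. They were found for 24 of the 29 genes and for 8 of the ER genes. Cct4, Fkbp10, Hsp90ab1, Hspa8 and Tmem132a had none. The ER stress response element, which the factors ATF6 and NF-Y bind in mammals, was searched as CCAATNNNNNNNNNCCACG or, on the other strand, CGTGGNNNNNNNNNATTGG. It was present in 4 of the 24 genes, all of the ER (4 of 8). Over all genes it was present in 37 of 27025 (0.137%), or 39 of 32851 promoters (0.119%). These 4 are shown because they belong to BiP, Grp94, calnexin and a disulfide isomerase, described above. Only the 250 bases before the start are printed, which held all matches of the members. The matches are in capitals, 5 prime to 3 prime on the gene's strand.
Hspa5, chr2:34771840-34772089, plus strand: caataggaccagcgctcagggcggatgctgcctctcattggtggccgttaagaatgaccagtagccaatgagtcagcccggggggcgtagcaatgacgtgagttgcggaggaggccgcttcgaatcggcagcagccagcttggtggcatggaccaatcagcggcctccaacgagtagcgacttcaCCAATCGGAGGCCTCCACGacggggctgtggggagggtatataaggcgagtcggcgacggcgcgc
Hsp90b1, chr10:86705445-86705694, minus strand: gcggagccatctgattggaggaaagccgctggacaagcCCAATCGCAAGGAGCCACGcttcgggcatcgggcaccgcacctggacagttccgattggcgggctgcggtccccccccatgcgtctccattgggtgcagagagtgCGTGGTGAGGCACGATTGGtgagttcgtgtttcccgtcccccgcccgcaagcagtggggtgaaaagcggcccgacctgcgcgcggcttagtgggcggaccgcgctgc
Canx, chr11:50325674-50325923, minus strand: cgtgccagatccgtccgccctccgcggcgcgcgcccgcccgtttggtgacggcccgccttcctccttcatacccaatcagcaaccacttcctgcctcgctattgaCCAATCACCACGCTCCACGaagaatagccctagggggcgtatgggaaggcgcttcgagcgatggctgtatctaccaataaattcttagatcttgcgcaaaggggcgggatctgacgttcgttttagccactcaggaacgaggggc
Pdia6, chr12:17266339-17266588, plus strand: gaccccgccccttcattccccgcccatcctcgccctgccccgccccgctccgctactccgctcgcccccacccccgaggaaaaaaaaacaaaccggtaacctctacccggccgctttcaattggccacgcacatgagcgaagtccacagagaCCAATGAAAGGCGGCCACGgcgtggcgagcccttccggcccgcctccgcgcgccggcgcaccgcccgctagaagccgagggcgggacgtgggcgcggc
The match ended 47 bases before the start in Hspa5, 80 in Pdia6 and 127 in Canx, and Hsp90b1 had 2 matches, 1 in each orientation. The heat shock element, the site of heat shock factors, was searched as GAANNTTCNNGAA or TTCNNGAANNTTC. It was found in 198 promoters (0.603%), or 179 of 27025 genes (0.662%). Among the members it was found only in Hspe1, where 2 overlapping matches formed the run in capitals.
Hspe1, chr1:55087898-55088147, plus strand: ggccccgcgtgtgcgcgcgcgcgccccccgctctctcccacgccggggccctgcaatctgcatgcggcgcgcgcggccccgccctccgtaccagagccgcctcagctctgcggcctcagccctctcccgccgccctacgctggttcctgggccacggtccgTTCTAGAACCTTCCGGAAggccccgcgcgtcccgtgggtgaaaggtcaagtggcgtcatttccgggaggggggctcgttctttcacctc
A match is a description of the letters, not evidence that a factor binds there. The 4 genes with the ER element differed between WT skin and WT buds by 0.24 ± 0.14 (Pdia6) to 0.74 ± 0.27 (Hsp90b1), counting 0.58 ± 0.27 on the other probe set of Hsp90b1. Of the 4 ER genes whose window had no match, Pdia5 (0.64 ± 0.19) and Dnajc1 (0.48 ± 0.20) lay within that range, and Ppib (-0.09 ± 0.11) and Pdia3 (-0.55 ± 0.28) below it. All of these genes but Pdia6 and Ppib were listed from this contrast, Pdia3 as lower and the others as higher. Which genes lay within the range was thus largely fixed by the choice.

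Between skin labelled K14-PTHrP and K14WT skin no member passed the test, in a comparison whose arrays had no part in choosing the members. Fkbp10, Hsp90b1, Tmem132a, Dnajc14, Pdia3 and Hsp90ab1 had the higher means in the transgenic skin, and Hspb1 and Cct3 the lower. Over all probe sets 83 of 11690 passed (0.71%), and 6 of the 35 members had an unadjusted p under 0.05, beside 11.8% of all probe sets. The median of the members was 0.17, with 26 above and 9 below 0, against -0.01 and 48.5% above 0 over all probe sets. Of the ER members 10 of 11 were above 0 (median 0.30), and of the cytosolic and nuclear ones 14 of 21 (median 0.07).

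Fkbp10 had the highest difference, and it was the only member whose groups did not overlap with the transgenic skin higher (background 4.74%), while 0 members were lower without overlap (background 6.6%). On 1415951_at it read 6.02, 5.38 and 5.55 in K14WT and 6.18, 6.18 and 7.20 in K14-PTHrP skin, a difference of 0.87 ± 0.27 (adjusted p = 0.241). The third transgenic array was far above the other 2, and on 1449632_s_at, where it also stood highest (8.23 against 7.41 and 7.05), the groups overlapped (0.30 ± 0.23). Without that array the difference on 1415951_at was 0.53 (adjusted p = 0.468). Tmem132a, at 5.81, 5.90 and 6.93 in the transgenic skin, had the same array on top and differed by 0.57 ± 0.26. On that array the Gapdh 3 prime minus 5 prime level was 1.19, beside 0.30 and 0.44 on the others, and the part of this in the values was not tested.

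Hspb1 had the lowest difference. It read 11.93, 12.75 and 12.49 in K14WT skin and 11.79, 12.18 and 11.50 in K14-PTHrP skin on 1422943_a_at (-0.57 ± 0.20, adjusted p = 0.293). All K14WT arrays but the first stood above all transgenic ones, and without the first the difference of -0.80 passed the test (adjusted p = 0.0393). It was the only 1 of the 6 fits without 1 array that passed, and the highest adjusted p in them was 0.61. The probe set 1425964_x_at differed by -0.51 ± 0.19 and passed in 0 of the 6 fits (lowest adjusted p = 0.0823). Hsp90ab1 differed by 0.40 ± 0.15 (adjusted p = 0.323), Hsp90b1 by 0.62 ± 0.27 on 1415889_a_at, Dnajc14 by 0.56 ± 0.27 and Pdia3 by 0.55 ± 0.28. Below 0 lay Cct3 (-0.50 ± 0.24), Pdia5 (-0.23 ± 0.19) and Hspe1 (-0.15 ± 0.14), whose signs turned when arrays were weighted by quality. Hspa8 on 1455789_x_at differed by 0.07 ± 0.13, Fkbp1a by 0.28 ± 0.16 and Ppib by 0.09 ± 0.11.

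The calls among the members came from the comparison of the 2 sets of WT skin. Hsp90ab1, its cochaperone Fkbp4, Fkbp10, the TRiC subunit gene Cct7, the ER J protein gene Dnajc1 and Tmem132a were all lower in K14WT than in WT skin, by 1.42-fold to 2.14-fold. No member was called higher, and Hspa1b had the highest difference (0.36 ± 0.16). The 6 calls were 17.1% of the 35 members, beside 699 of 11690 probe sets called lower (5.98%) and 162 called higher (1.39%). After quantile normalization 4 members and 436 probe sets were called lower and 251 probe sets higher. The median of the members was -0.26, with 28 of 35 below 0, beside -0.05 over all probe sets, of which 43.6% were above 0. An unadjusted p under 0.05 was found for 10 members (background 25.4%). The arrays did not overlap for 10 members with K14WT skin lower (background 21.4%) and 1 with it higher (background 9.61%). The 13 members listed as higher in WT skin than in WT buds were chosen on these same WT skin arrays. That choice favoured lower values in K14WT skin for them, and the reverse for the few listed as lower. The median and the counts of the members are therefore not free of the choice. Both groups are WT ventral skin of the same strain and age by their labels, which do not say how their preparation differed.

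Hsp90ab1 read 11.78, 11.92 and 11.56 in WT skin and 10.89, 10.83 and 10.32 in K14WT skin. The highest K14WT array was well below the lowest WT skin array, and Hsp90ab1 fell by 1.08 ± 0.15 on the log2 scale, or 2.11-fold (adjusted p = 0.000486). This call held when any 1 of the 6 arrays was left out (adjusted p from 0.000475 to 0.0042) and under 9 other settings (1.3e-06 to 0.0202). The level was 10.88 to 11.21 in K14-PTHrP skin, below every array of WT skin and of both bud groups. In order of their means the groups ran from WT buds (11.83) and WT skin (11.76), which overlapped, through mutant buds (11.48) and K14-PTHrP skin (11.08) to K14WT skin (10.68), and the last 2 overlapped. Hsp90ab1 was listed for its difference in the buds alone, so the WT skin arrays had no part in its choice, and this holds for Fkbp4, Cct7 and Tmem132a as well.

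Fkbp4 read 9.58, 9.91 and 9.62 in WT skin and 9.36, 8.70 and 8.98 in K14WT skin, without overlap (-0.69 ± 0.15, adjusted p = 0.0155). The call was kept in 3 of the 6 fits without 1 array (adjusted p from 0.00175 to 0.0754) and lost in the fit of these 2 groups alone (0.0747). Fkbp10 on 1415951_at read 6.62, 7.00 and 6.63 against 6.02, 5.38 and 5.55 (-1.10 ± 0.27, adjusted p = 0.0261), and on 1449632_s_at it was lower without overlap but did not pass (-0.64 ± 0.23, adjusted p = 0.109). Fkbp10 had been listed as higher in WT skin than in buds, from the same WT skin arrays. Fkbp1a had been listed so as well. All 5 probe sets of the FK506 binding proteins were below 0 (median -0.64), and all 5 were above 0 in the transgenic skin minus the same K14WT arrays (median 0.28). The K14WT arrays enter the 2 comparisons with opposite signs, so the second is no independent observation. Of all 35 members, 28 were below 0 in the first and 26 above 0 in the second.

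Cct7 read 9.92, 10.09 and 9.84 in WT skin and 9.41, 9.45 and 9.47 in K14WT skin (-0.51 ± 0.13, adjusted p = 0.0312), with a K14WT SD of 0.03, the lowest among the 35 members. Tmem132a read 6.62, 6.92 and 6.53 against 6.07, 5.42 and 5.44 (-1.05 ± 0.26, adjusted p = 0.0285). Dnajc1 read 7.29, 7.10 and 7.31 against 6.76, 6.27 and 6.36 (-0.77 ± 0.20, adjusted p = 0.0368), and the WT skin arrays had helped to list it too. None of these 3 genes had overlapping arrays, but each call, like that of Fkbp10, was kept in only 1 of the 6 fits without 1 array. The highest adjusted p in those fits was 0.121 for Cct7, 0.114 for Tmem132a, 0.119 for Dnajc1 and 0.108 for Fkbp10. Testing all probe sets without the filter on dim ones lost the calls of Fkbp10 (adjusted p = 0.0623), Tmem132a (0.0675) and Dnajc1 (0.077), and quantile normalization lost those of Cct7 (0.0703) and Dnajc1 (0.0624). Without the second array of either group, or the third K14WT array, only 1 of the 35 members was called, beside 383 to 467 of 11690 probe sets. Without the first K14WT array 7 members were called, beside 1278 probe sets.

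Members near these that did not pass were Hsp90b1 on 1415889_a_at (-0.72 ± 0.27, adjusted p = 0.112) and Dnajc14 (-0.70 ± 0.27, adjusted p = 0.128). At the other end were Pdia3 (0.26 ± 0.28), Hspb1 (0.23 ± 0.20), Cct3 (0.21 ± 0.24) and Dnajc7 (0.21 ± 0.39), and the sign of the last 2 turned when 1 array was left out. The skin sets also differed outside the members: 18S ribosomal RNA read 6.90 to 7.63 on the WT skin arrays and 9.27 to 10.91 on those of K14WT skin, and 9 of 11 skeletal muscle markers were above 0, with Myl1 called higher. The beta-actin 3 prime minus 5 prime levels were 1.61, 1.27 and 1.5 in WT and 1.17, 1.12 and 1.34 in K14WT skin, and those of Gapdh 0.82, 0.66 and 0.91 against 0.56, 0.78 and 0.46, both with lower means in K14WT skin and overlapping arrays. The summed level of the muscle markers was 12.82 to 13.50 in WT and 13.70 to 14.18 in K14WT skin, that of 5 keratinocyte markers 13.59 to 13.75 and 13.20 to 13.71, and that of 7 fibroblast markers 14.74 to 15.08 and 14.97 to 15.06. Among them Krt15 and Crabp1 were called lower. Of 5 endothelial markers Ramp2 was called lower (-2.04 ± 0.38), while Cdh5, Cldn5, Egfl7 and Esam differed by -0.12 to 0.02. The summed level of the 5, Ramp2 included, was 10.29 to 10.53 in WT and 9.45 to 9.91 in K14WT skin. The part of these in the members' calls was not tested.

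**Figure D4:**
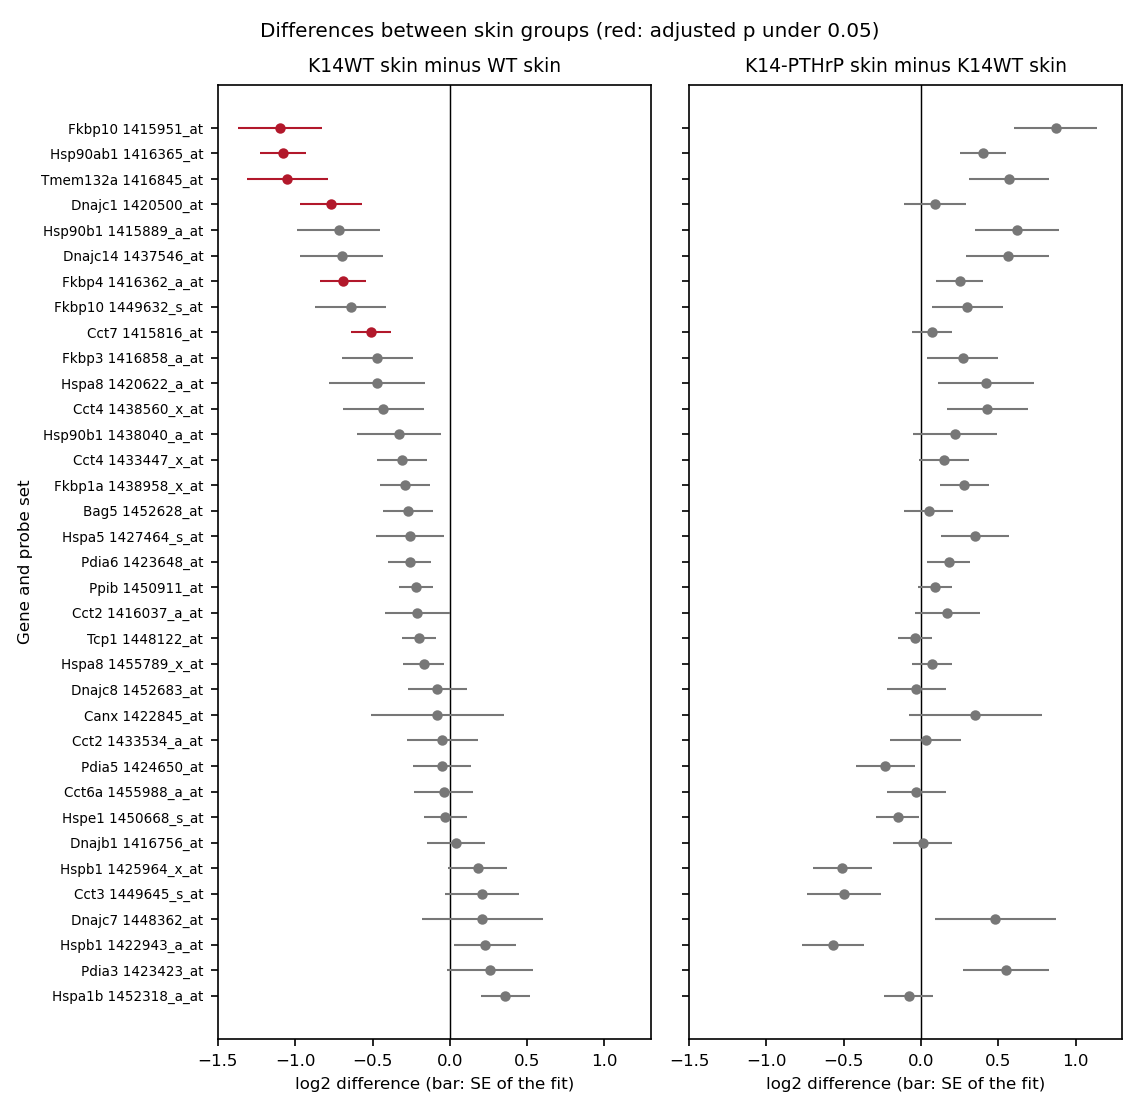
Log2 differences of the 35 member probe sets, with the SE of the fit, for K14WT minus WT skin (left) and K14-PTHrP minus K14WT skin (right), which share the K14WT arrays. The 6 called probe sets, in red, are on the left and lie between -1.10 and -0.51, and none is called on the right.

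The members had larger SDs between arrays than the median probe set, above all in K14WT skin. Their median SD over 3 arrays was 0.33 in K14WT skin, beside 0.18 over all probe sets, and 0.30 beside 0.20 in K14-PTHrP skin, 0.18 beside 0.12 in WT skin, 0.15 beside 0.13 in WT buds and 0.14 beside 0.11 in mutant buds. The second K14WT array was the lowest of its group for 23 of the 35 members (65.7%) and for 43.0% of all probe sets, and the first was the highest for 23 members (65.7%) and for 43.4% of all. Canx, with the highest K14WT SD of the members (0.95), showed this most plainly, with 8.98, 7.14 and 8.50. Hsp90b1 on 1415889_a_at read 11.25, 10.04 and 10.67. On 1420622_a_at Hspa8 read 12.00, 10.50 and 12.01, so that only its second array was low. Hspb1 had the reverse order, with its highest level on the second array. The ER medians of the 3 K14WT arrays, relative to WT buds, were 0.17, -0.19 and 0.03, against 0.65, 0.69 and 0.38 in WT skin and 0.40, 0.13 and 0.31 in K14-PTHrP skin. Most ER probe sets had been listed as higher on the WT skin arrays than in WT buds, which favoured the medians of WT skin.

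Other folding factors, from a list of 52 genes that the prefixes do not take, were named on the authors' lists for 13 genes. In K14WT minus WT skin, Sgta, a cochaperone that guides tail-anchored membrane proteins, was the only one of the 13 called. Sgta read 7.14, 7.29 and 7.10 in WT skin and 6.34, 5.37 and 5.29 in K14WT skin, without overlap (-1.51 ± 0.29, adjusted p = 0.00808). In K14-PTHrP skin Sgta read 6.56, 6.53 and 7.58 (1.22 ± 0.29 above K14WT, adjusted p = 0.0992). Cdc37, which brings kinases to Hsp90, read 9.34, 9.69 and 9.45 in WT skin and 8.99, 9.20 and 8.84 in K14WT skin (-0.49 ± 0.15, adjusted p = 0.064), and the small heat shock protein gene Cryab differed by 0.93 ± 0.29 (adjusted p = 0.071). None of the 13 passed in the other 3 comparisons. Their median was -0.40 in the mutant minus WT buds. That sign was fixed by the choice, because 11 of the 13 were named through the list of probe sets lower there. In WT skin minus WT buds the median was -0.21, and the choice, made on the same WT bud arrays, favoured a value below 0. It was 0.03 in K14-PTHrP minus K14WT skin and -0.17 in K14WT minus WT skin.

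Serpinh1 (Hsp47), the collagen chaperone of the ER, read 11.70, 11.56 and 12.02 in WT buds and 12.44, 12.31 and 12.25 in WT skin, without overlap (0.57 ± 0.14, adjusted p = 0.0702). Serpinh1 was named through the list of probe sets higher in WT skin than in WT buds, which fixed this direction. Its 3 skin groups had similar means, 12.34 in WT, 12.27 in K14WT and 12.36 in K14-PTHrP skin. Of 23 regulators of the heat shock and ER stress responses, 5 were named, Atf4, Xbp1, Derl1, Derl2 and Sqstm1, and none passed in any of the 4 comparisons. Atf4, a transcription factor of the stress response, read 9.53, 9.37 and 9.08 in WT buds and 9.99, 10.00 and 10.04 in mutant buds (0.69 ± 0.21, adjusted p = 0.247). Xbp1, whose spliced form turns on ER folding genes, differed there by -0.44 ± 0.24, and Derl1, a part of the ER degradation machinery, by -0.85 ± 0.27. Atf4 had been listed as higher and Xbp1 and Derl1 as lower in the mutant buds, so these directions were fixed by the choice.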

How the data were processed

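GC-RMA was the authors' normalization, per the file headers (the submitters' processing notes name GCRMA, MAS5 and affy without versions). The value table the authors deposited gives log2 levels for 22690 probe sets. Their 4 deposited lists give the mean intensity of each group in whole numbers and a signed fold change, a score that is negative where the group is lower; the headers name Cyber-T for the choice of the lists. The members and the gene, compartment and marker lists were chosen with earlier results of these data known. Symbols were updated through a RefSeq gene table by Entrez ID.

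After 64 control probe sets were left out, probe sets that exceeded the median of their array on 3 or more of the 15 arrays were tested, 11690 in all. Array medians ran from 3.86 to 4.05. limma 3.58.1 (R 4.3.3) fitted 5 group means to the deposited values, with 10 residual and 3.09 prior degrees of freedom (prior SD 0.166) and no further normalization. Tests were two-sided, adjusted by Benjamini-Hochberg over all kept probe sets, with a threshold of 0.05, and the fit was tested on simulated data. The number of arrays limits the precision. Errors after ± are standard errors of the fit, n = 3 arrays a group.

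Named in each comparison were every called member, the 5 highest and 5 lowest differences, the brightest member of each family, and genes whose probe sets disagreed. Sgta, Cdc37 and the other genes outside the members were named from the pathway lists after their values were seen. Alternatives were other filters, quantile normalization, median centring, 2-group fits, array weights, a trended robust prior, a replicate block, 1 probe set a gene, and leaving out each array. No batch is named in the labels.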

Additional observations from a re-analysis of the deposited data

How the results depend on the processing

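The counts of called members were 0 (mutant minus WT buds), 0 (WT skin minus WT buds), 0 (K14-PTHrP minus K14WT skin) and 6 (K14WT minus WT skin). With array quality weights they became 3, 6, 5 and 15 of the 35 members, beside 234, 581, 1352 and 4034 of all 11690 probe sets. The 15 included Hspa1b and Hspb1, whose differences were above 0 in the main fit (0.36 and 0.23). For WT skin minus WT buds a trended robust prior and the fit of the 2 groups alone each gave 1, beside 208 and 243 of all probe sets. For K14WT minus WT skin, testing all probe sets without the filter gave 3, beside 582 of 22626. Leaving out each array in turn gave 0 to 0, 0 to 1, 0 to 1 and 1 to 7 calls. The 1 call in WT skin minus WT buds was Pdia5 without the third WT skin array (0.84, adjusted p = 0.0238). Median differences of the members ranged over these fits from -0.28 to -0.14, 0.16 to 0.30, 0.05 to 0.26 and -0.38 to -0.13, and with the brightest probe set per gene the median of WT skin minus WT buds was 0.18. Signs turned for Cct3 (0.0012), Hspe1 (0.02) and Pdia5 (0.03) in K14-PTHrP minus K14WT skin with array weights. In K14WT minus WT skin they turned for Cct3 (-0.0032 without the third WT skin array, range without 1 array -0.0032 to 0.44) and Dnajc7 (-0.13 without the first K14WT array, range -0.13 to 0.41). The cause of these changes was not tested.

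Over all probe sets, the 4 calls in the buds became 234 with array weights and 97 in the fit of the 2 groups alone, and 1 to 6 without 1 array. The 214 calls of WT skin minus WT buds became 581 with array weights and 25 without the probe sets on which WT skin stood apart, an alternative chosen after seeing the data. The 83 calls of K14-PTHrP minus K14WT skin became 1352 with array weights, 7 in the fit of the 2 groups alone and 48 to 210 without 1 array. The 861 of K14WT minus WT skin became 4034 with array weights and 383 to 1278 without 1 array. Deviations of same-numbered arrays from their group means correlated by -0.14 to 0.31, and by over 0.1 for only some numbers in each comparison. This check cannot tell whether equal replicate numbers marked paired arrays, since the deviations of so few arrays a group are not independent. With the replicate number as a block the member counts were 0, 0, 0 and 6 and the medians -0.24, 0.24, 0.17 and -0.26. The prefix alternative took out no member, and the rule by which an earlier analysis set probe sets aside was not rerun. Leaving out Tmem132a, also chosen after seeing the data, left 5 calls in K14WT minus WT skin.

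Only genes on the authors' lists carried names, so folding genes that were not listed were not analysed here. With 3 arrays a group, members without a call were not shown to be equal between groups.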

Other observations

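Hspb1 had another member probe set, 1427853_a_at, which was too dim to be tested. It read 3.84 on the third array of the mutant buds and 3.77 on the first array of the K14-PTHrP skin, and 1.40 to 2.06 on the other arrays. The authors' deposited table puts it below WT buds in WT skin, with mean signals of 4 in buds and 3 in skin. The other 2 probe sets of Hspb1 read 11.34 to 12.75 over the 15 arrays.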
